A study of Homo sapiens with 9 samples.

Results

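Base excision repair and single-strand break repair were followed here through 10 genes, UNG, OGG1, MUTYH, NEIL3, APEX1, POLB, XRCC1, LIG3, PARP1 and PARP2. They were picked by name as core members of these pathways, out of 60966 genes in the tables, and each was taken as the sum of its transcripts. RNA-seq had been performed in H1299 cells, an established human lung carcinoma line, to learn which mRNAs depend on FIBP, a protein that binds acidic fibroblast growth factor. The data were 3 groups of 3 samples, all transfected with a siRNA, listed at 100 nM with a lipid reagent and harvested at 48 h. Scramble cells had received a control siRNA, Si-FIBP#1 cells the first and Si-FIBP#2 cells the second siRNA against FIBP. All groups came from 1 cell line, no rescue with FIBP was among them, none was irradiated, and nothing in the labels ties a replicate to a separate culture, so that p-values measure the spread between these samples. Both comparisons with Scramble share the same 3 control samples.

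As background, base excision repair removes small base lesions. A DNA glycosylase cuts the damaged base from the sugar (UNG removes uracil, OGG1 oxidised guanine, MUTYH adenine paired with oxidised guanine, NEIL3 several oxidised bases), and APEX1 then nicks the strand at the empty site. In the short route POLB fills the gap of a single nucleotide and LIG3, held by the scaffold XRCC1, seals it. In the long route the replication proteins PCNA, FEN1 and LIG1 renew a longer stretch. PARP1 and PARP2 bind the nick and mark it with poly(ADP-ribose), which brings in XRCC1. Repair of this kind deals with most of the base damage and single-strand breaks that ionising radiation leaves in a cell.

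FIBP, the targeted gene, measured 81.9 ± 5.71 FPKM (SD, n = 3) in Scramble, 6.52 ± 1.93 after Si-FIBP#1 and 7.09 ± 1.15 after Si-FIBP#2. The siRNA libraries were thus told from Scramble as labelled. FIBP overlapped between the siRNA groups, so it cannot check which of them is Si-FIBP#1 and which Si-FIBP#2. FPKM scales the fragments of a transcript by its length and by the depth of the library, which allows levels of different genes to be set side by side. Depth was estimated from the smallest steps of the values at 20000000 to 23800000 fragments a sample, and 13894 to 14715 genes reached 1 FPKM. KRT8 (67.15 to 108.14 FPKM), KRT18 (142.89 to 483.13) and VIM (1592.49 to 3368.8) were present in every sample, whereas KRT19 stayed between 0 and 0.29. These 3 markers were themselves lower in both siRNA groups, KRT8 at 68.8% and 71.2%, KRT18 at 43.9% and 36.7% and VIM at 71.4% and 61.5% of the Scramble mean, and all passed. The summed level of 9 markers of leukocytes, endothelium, fibroblasts and alveolar cells was 0.07 to 0.44 FPKM in Scramble, 0.38 to 1.16 after Si-FIBP#1 and 0.78 to 1.77 after Si-FIBP#2. COL1A1, the highest of them in the siRNA groups, ranged from 0.03 to 1.59 over all samples, and 5, 5 and 1 of the 9 were at 0 throughout the group. Bulk values cannot tell fewer cells that express a gene from less RNA in each cell.

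All 10 genes were expressed and tested. Genes passed at a false discovery rate (FDR) below 0.05 in limma, with Benjamini-Hochberg adjustment over all 14985 genes tested. With Si-FIBP#1, UNG, OGG1, NEIL3, XRCC1, PARP1 and PARP2 fell, POLB rose and 3 genes did not pass. Among all genes 19.9% passed as lower and 27.8% as higher in that comparison. With Si-FIBP#2, UNG, OGG1, NEIL3, PARP1 and PARP2 fell, POLB and XRCC1 rose and 3 genes did not pass, where 17.7% of all genes were lower and 31.1% higher. The median log2 fold change of the 10 genes was -0.30 and -0.17, against 0.07 and 0.11 over all genes. NEIL3 alone fell by over 2-fold with both siRNAs, and UNG did so after Si-FIBP#2; 3.11% and 2.13% of all genes passed as lower by over 2-fold after Si-FIBP#1 and Si-FIBP#2.

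**Figure D1:**
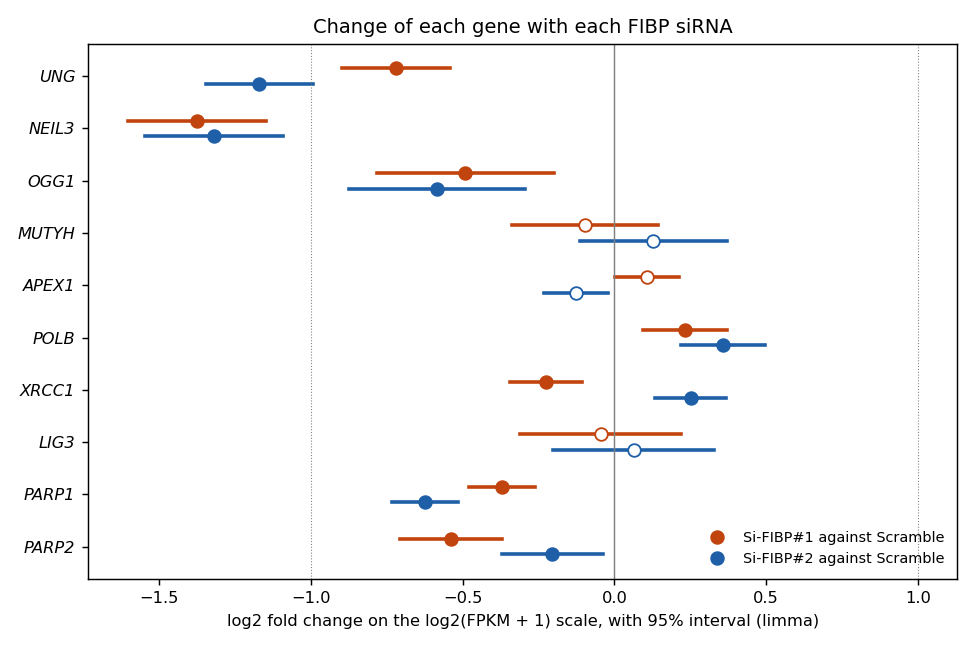
Log2 fold change of each of the 10 repair genes after Si-FIBP#1 (orange) and Si-FIBP#2 (blue) against Scramble, with its 95% interval from limma; filled points passed at FDR below 0.05, open points did not, and dotted lines mark a 2-fold change. NEIL3 and UNG lie farthest to the left, XRCC1 has points on opposite sides of 0, and MUTYH, LIG3 and APEX1 have open points only.

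Set apart by single samples, 6 genes had all 3 Si-FIBP#1 values below all 3 Scramble values, 2 had all above and 2 overlapped. With Si-FIBP#2 the numbers were again 6 below, 2 above and 2 overlapping, APEX1 and XRCC1 having changed sides. Over all genes such a gap was seen downwards in 24.3% and upwards in 34.5% after Si-FIBP#1, and in 21.2% and 36.1% after Si-FIBP#2. UNG, OGG1, NEIL3, PARP1 and PARP2 were below every control in all samples of both siRNAs, and POLB was above. The share of all genes with such a gap in both comparisons, which share their controls, was not counted. By the test, 5396 of all 14985 genes passed with both siRNAs, 73 of them with opposite signs. Scaling by the median ratio in place of FPKM moved the median of all genes by -0.07 after Si-FIBP#1 and by -0.11 after Si-FIBP#2, and the passing genes from 4170 higher and 2976 lower to 3356 and 3595, and from 4653 and 2656 to 3328 and 3667. On that scale 6 of the 10 genes fell and 0 rose after Si-FIBP#1, and 6 fell and 1 rose after Si-FIBP#2; UNG, OGG1, NEIL3 and PARP1 passed as lower with both siRNAs as FPKM, as TPM and on the median-ratio scale, and PARP2 did so except as TPM with Si-FIBP#2 (-0.21, adjusted p = 0.0518).

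**Figure D2:**
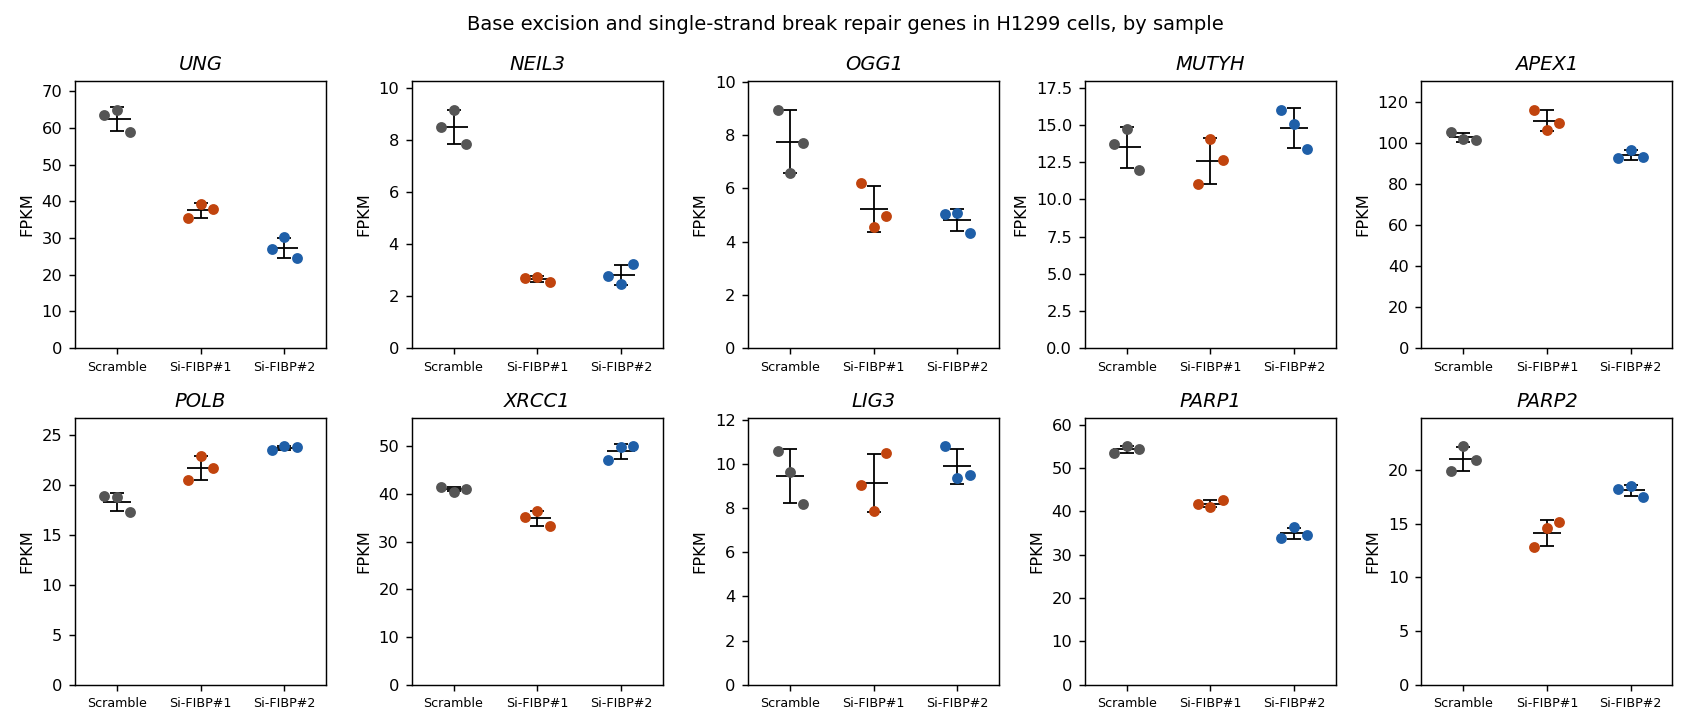
FPKM of each of the 10 repair genes in the 9 samples, each point 1 sample, with the mean and SD of the 3 samples in black; every vertical axis starts at 0. The orange and blue points of NEIL3, UNG, PARP1, PARP2 and OGG1 lie below the grey Scramble points and those of POLB above. Those of MUTYH and LIG3 overlap the grey points, with some above and some below all of them.

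NEIL3, a glycosylase of the Nei family that is known to be made mainly in dividing cells, showed the deepest fall. Its level was 8.51, 9.17 and 7.85 FPKM in Scramble, 2.7, 2.73 and 2.54 after Si-FIBP#1, and 2.77, 2.45 and 3.22 after Si-FIBP#2. The siRNA samples thus held about the same level, 31.2% and 33.1% of the control mean, with no overlap. NEIL3 fell by 1.38 and 1.32 on the log2 scale (SE 0.10, adjusted p = 6.29e-06 and 9.36e-06), and the difference between both siRNAs was 0.06 (adjusted p = 0.766). An estimated 103 to 427 fragments a sample stood behind these values. A single transcript, NEIL3-201, made up 95.5% to 97.1% of the gene and fell alike, by 1.39 and 1.31 on the log2 scale. The 3 genes whose log2 levels followed NEIL3 most closely over the 9 samples were E2F2 (Pearson r = 0.996), DCAF13 (0.995) and TPM1 (0.995); all 9 points share the 3 groups.

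NEIL3 lies on chromosome 4 (177309836 to 177362943, plus strand, GRCh38, GENCODE release 29) and shares no exon bases with another gene. Its RefSeq promoter window, from 250 bases before to 50 after the start site at 177309874 (chr4:177309624-177309923, GRCh38.p14, plus strand), is printed because NEIL3 fell most and holds the cell cycle homology (CHR) letters TTTGAA, here in capitals, 24 to 19 bases before the start.
NEIL3 promoter: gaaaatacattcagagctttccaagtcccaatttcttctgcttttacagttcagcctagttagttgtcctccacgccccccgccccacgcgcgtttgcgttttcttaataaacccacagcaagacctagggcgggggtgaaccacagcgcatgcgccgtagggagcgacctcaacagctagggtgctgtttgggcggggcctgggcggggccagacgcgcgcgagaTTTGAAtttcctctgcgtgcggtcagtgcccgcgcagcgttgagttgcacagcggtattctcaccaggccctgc

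UNG, the main uracil-DNA glycosylase, was the second gene in depth of change and differed between siRNAs. The Scramble samples had 63.68, 65.04 and 58.89 FPKM, the Si-FIBP#1 samples 35.43, 39.25 and 38.03, and the Si-FIBP#2 samples 27.03, 30.22 and 24.66. The groups stood in 3 steps without overlap, at 60.1% of the control mean after Si-FIBP#1 and 43.7% after Si-FIBP#2. On the log2 scale UNG fell by 0.72 after Si-FIBP#1 (SE 0.08, adjusted p = 7.22e-05) and by 1.17 after Si-FIBP#2 (adjusted p = 4.28e-06), and the difference of -0.45 between them passed (adjusted p = 0.00597).

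UNG is read from 2 start sites on chromosome 12 (109097574 to 109110992, plus strand, GRCh38, GENCODE release 29). Transcript UNG-201, from the upstream start, encodes the nuclear enzyme (UNG2), and UNG-202, which starts 544 bases further on, encodes the mitochondrial enzyme (UNG1). The 2 coding sequences run to 939 and 912 bases and differ only in their beginnings, which are printed here because the transcripts moved apart. They lie at chr12:109097680-109097811 and chr12:109098327-109098431; the capitals are the first 18 bases of the shared part, which starts at 109098432.
UNG-201 coding start: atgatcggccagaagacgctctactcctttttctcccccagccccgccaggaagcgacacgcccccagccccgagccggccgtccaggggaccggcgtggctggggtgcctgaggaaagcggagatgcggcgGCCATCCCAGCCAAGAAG
UNG-202 coding start: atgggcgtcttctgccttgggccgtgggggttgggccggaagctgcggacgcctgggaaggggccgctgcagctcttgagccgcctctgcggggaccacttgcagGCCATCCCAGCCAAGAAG

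The 2 UNG transcripts moved in opposite directions. UNG-201 had 58.48, 56.1 and 53.16 FPKM in Scramble, 20.88, 23.43 and 19.66 after Si-FIBP#1, and 17.47, 18.72 and 13.27 after Si-FIBP#2. Every siRNA sample was thus far below its controls, at 38.1% and 29.5% of the Scramble mean. This was a log2 fold change of -1.35 and -1.72 (SE 0.12), with an adjusted p over all 47662 transcripts tested of 0.000174 and 6.38e-05. UNG-202 had 5.2, 8.94 and 5.58 FPKM in Scramble, 14.31, 15.28 and 18.37 after Si-FIBP#1, and 9.56, 11.5 and 11.39 after Si-FIBP#2. All siRNA samples were above all controls, at 243.2% and 164.6% of the Scramble mean. On the log2 scale UNG-202 rose by 1.19 after Si-FIBP#1 (SE 0.18, adjusted p = 0.00254) and by 0.67 after Si-FIBP#2 (adjusted p = 0.0338). The call after Si-FIBP#2 was lost when Scramble replicate 1 or 3, Si-FIBP#1 replicate 2, or Si-FIBP#2 replicate 2 or 3 was left out, with log2 fold changes from 0.54 to 0.67 and adjusted p up to 0.102. The siRNAs did not differ from each other beyond the threshold in UNG-201 (difference -0.36, 95% interval -0.64 to -0.08, adjusted p = 0.176) or in UNG-202 (-0.52, -0.93 to -0.11, adjusted p = 0.191).

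These changes gave UNG-202 a larger share of UNG after FIBP depletion, which is described here without a test because it follows from the values of both transcripts. Its share was 8.17%, 13.7% and 9.48% in Scramble, 40.4%, 38.9% and 48.3% after Si-FIBP#1, and 35.4%, 38.1% and 46.2% after Si-FIBP#2. The mean rose from 10.5% ± 2.92 (SD, n = 3) to 42.5% ± 5.04 and 39.9% ± 5.63, a gap several times the spread within groups. Among 9411 genes with more than 1 transcript tested, 1.66% had a transcript that rose and another that fell with both siRNAs. UNG was the only one of the 10 repair genes to do so, where NEIL3 and PARP1 had a single tested transcript and could not. It did so through the UNG-202 call after Si-FIBP#2, which was lost in 5 of 11 alternatives.

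Most of UNG cannot tell its transcripts apart. In GENCODE release 29 they share 1816 bases, and at their starts 238 bases (11.5%) belong to UNG-201 alone and 314 (14.7%) to UNG-202 alone, besides a few at the 3′ end of UNG-201. UNG-202 has 2130 bases both there and in the tables, but UNG-201 has 2071 there and 2048 in the tables, so the authors counted on a slightly shorter UNG-201 whose own bases are not known here. Each transcript value is an estimate that rests on a short stretch. The bases of UNG-202 lie within the first intron of UNG-201, and unspliced UNG-201 RNA would hold them as well; whether it took part was not tested. Over all genes, 275 of 5576 transcripts annotated as retained introns rose and 305 fell after Si-FIBP#1, and 234 rose and 221 fell after Si-FIBP#2. Of all 47662 transcripts, 5082 rose and 4766 fell after Si-FIBP#1, and 5049 rose and 4032 fell after Si-FIBP#2. These counts do not measure unspliced UNG-201 RNA.

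**Figure D3:**
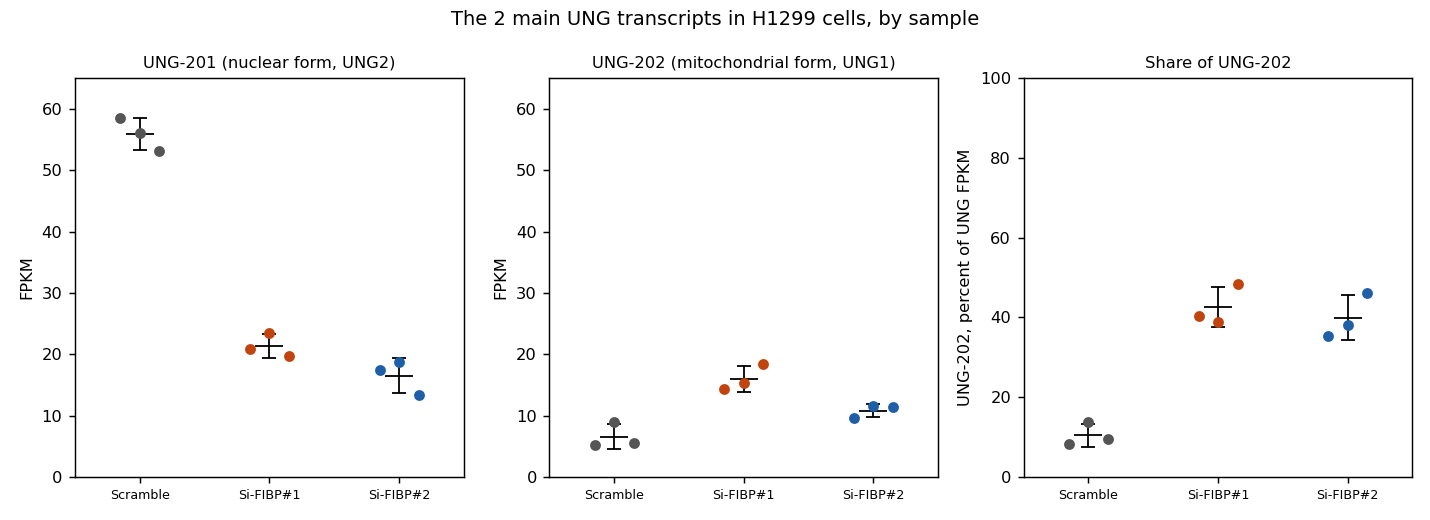
FPKM of UNG-201 and UNG-202 and the percent of UNG that UNG-202 makes up, each point 1 sample, with the mean and SD of the 3 samples in black. UNG-201 drops from above 53 FPKM in Scramble to below 24 in all siRNA samples, and the share of UNG-202 rises from at most 13.7% to at least 35.4%.

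The promoter windows of both UNG starts, again 250 bases before to 50 after the RefSeq start sites at 109097597 and 109098172, are printed for comparison (chr12:109097347-109097646 and chr12:109097922-109098221, GRCh38.p14, plus strand). Capitals mark E2F letters (TTTCCCGC, TTTGGCGC, TTTCGCGC or TTTGCCGC on either strand) and CHR letters (TTTGAA on either strand), and no part of the first window is in capitals because neither was found there.
UNG upstream promoter: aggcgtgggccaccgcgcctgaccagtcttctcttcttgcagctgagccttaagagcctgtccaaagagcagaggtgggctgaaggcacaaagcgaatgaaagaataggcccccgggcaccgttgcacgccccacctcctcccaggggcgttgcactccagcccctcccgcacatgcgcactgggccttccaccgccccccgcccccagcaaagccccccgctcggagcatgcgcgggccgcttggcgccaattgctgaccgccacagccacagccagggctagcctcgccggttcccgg
UNG downstream promoter: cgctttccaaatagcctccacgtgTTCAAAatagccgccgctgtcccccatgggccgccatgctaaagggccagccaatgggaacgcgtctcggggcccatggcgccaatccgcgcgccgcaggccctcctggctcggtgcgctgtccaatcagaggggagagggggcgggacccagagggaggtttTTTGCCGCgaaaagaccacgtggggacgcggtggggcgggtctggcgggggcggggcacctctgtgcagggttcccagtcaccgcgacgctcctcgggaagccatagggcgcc

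In the downstream window TTTGCCGC stood 63 to 56 bases and TTCAAA 226 to 221 bases before the start. RefSeq windows were used for 9 of the 10 genes, with several windows for MUTYH and UNG. Windows on chromosome 8, where POLB lies, were left out, also from the 35116 windows. A gene counted once over all its windows, whereas the shares are per window. E2F letters were found in UNG alone, whereas 3.31% of 35116 promoter windows held them. CHR letters were found in MUTYH, NEIL3, UNG and XRCC1 (15.16% of all windows), the NF-Y letters CCAAT in APEX1, MUTYH, NEIL3, OGG1, UNG and XRCC1 (34.61%), and the STAT letters TTCNNNGAA in PARP2 (7.66%), 154 bases before its start. The motifs do not overlap in the printed windows. These matches describe letters and name no bound factor.

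OGG1 removes oxidised guanine and had the lowest mean level of the 10 genes in Scramble, where it overlapped NEIL3. Its level was 8.96, 6.59 and 7.72 FPKM in Scramble, 6.19, 4.54 and 4.96 after Si-FIBP#1, and 5.03, 5.08 and 4.33 after Si-FIBP#2. All siRNA samples were below all controls, the nearest being 6.19 against 6.59. OGG1 fell by 0.49 and 0.58 on the log2 scale (SE 0.13, adjusted p = 0.0114 and 0.00453), and the siRNAs differed by -0.09 (adjusted p = 0.686). Several transcripts shared most of OGG1 and none of them passed alone. OGG1 (chromosome 3, 9749944 to 9788219, plus strand) shares exon bases with CAMK1 and TADA3 on the other strand, and since use of strand in counting is not given in the sources used here, reads of these genes may be mixed.

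MUTYH, which corrects adenine set against oxidised guanine, did not pass in any comparison. The samples ranged from 12 to 14.73 FPKM in Scramble, 11 to 14.06 after Si-FIBP#1 and 13.37 to 16.03 after Si-FIBP#2, and each siRNA group overlapped the controls. The log2 fold change of -0.10 (95% interval -0.34 to 0.14, adjusted p = 0.488) after Si-FIBP#1 and 0.13 (-0.11 to 0.37, adjusted p = 0.355) after Si-FIBP#2 leaves room for changes of that size. MUTYH (chromosome 1, 45329163 to 45340470, minus strand) shares exon bases with TOE1 on the other strand.

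APEX1, the endonuclease that cuts at the empty site, was the most highly expressed of the 10 genes in every group and moved little. It measured 105.32, 101.84 and 101.17 FPKM in Scramble, 116.18, 106.3 and 109.85 after Si-FIBP#1, and 92.4, 96.62 and 93.26 after Si-FIBP#2. The Si-FIBP#1 samples lay above and the Si-FIBP#2 samples below the controls, yet neither passed, with log2 fold changes of 0.11 (SE 0.05, adjusted p = 0.0912) and -0.13 (adjusted p = 0.0505). The siRNAs differed from each other by -0.23 (adjusted p = 0.0111). The value of Si-FIBP#1 was 0.03 on the median-ratio scale (adjusted p = 0.643) and 0.06 as TPM (adjusted p = 0.341). With Si-FIBP#2, APEX1 passed on the median-ratio scale (-0.25, adjusted p = 0.00138), with a 5 FPKM filter (-0.13, 0.0498), and without Si-FIBP#1 replicate 1 (-0.13, 0.0415) or Si-FIBP#2 replicate 2 (-0.15, 0.035). APEX1-201, the main transcript with 57.7% to 59.0% of the gene, differed between siRNAs by -0.26 (adjusted p = 0.0284), a call lost in 8 of 11 alternatives, with the replicate block and without Scramble replicate 2 or 3, any Si-FIBP#1 sample, or Si-FIBP#2 replicate 1 or 3 (adjusted p up to 0.0942). The retained-intron transcript APEX1-205, named after its values were seen, rose from 6.39 ± 0.62 to 10.9 ± 0.71 FPKM (SD, n = 3) after Si-FIBP#1 (log2 fold change 0.69, adjusted p = 0.00307) and was 8.05 ± 0.96 after Si-FIBP#2 (0.29, adjusted p = 0.104). APEX1 (chromosome 14, 20455191 to 20457772, plus strand) shares exon bases with PIP4P1 on the other strand.

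POLB, the polymerase that fills the gap in short-patch repair, was the only gene of the 10 that rose with both siRNAs. It had 18.92, 18.75 and 17.27 FPKM in Scramble, 20.54, 22.87 and 21.68 after Si-FIBP#1, and 23.51, 23.87 and 23.81 after Si-FIBP#2. All siRNA samples were above all controls, and the 3 values of Si-FIBP#2 lay close together. POLB rose by 0.23 on the log2 scale after Si-FIBP#1 (SE 0.06, adjusted p = 0.0119) and by 0.36 after Si-FIBP#2 (adjusted p = 0.00115), and the difference between siRNAs did not pass (adjusted p = 0.211). The call after Si-FIBP#1 was lost on the median-ratio scale (0.16, adjusted p = 0.0565), with annotated transcripts alone (0.28, 0.0825), and without Scramble replicate 3 (0.19, 0.05) or Si-FIBP#1 replicate 2 (0.20, 0.0524). POLB-201 rose with both siRNAs, from 3.53 ± 0.15 FPKM (SD, n = 3) to 5.30 ± 0.89 and 6.94 ± 1.17 (log2 fold change 0.47 and 0.80, adjusted p = 0.0464 and 0.0053), and its first call was lost in 7 of 11 alternatives, with the replicate block and without any Scramble sample, Si-FIBP#1 replicate 1 or 2, or Si-FIBP#2 replicate 2 (adjusted p up to 0.144). A transcript assembled by the authors made up 40.2% to 45.4% of POLB and did not pass (0.13 and 0.18, adjusted p = 0.573 and 0.428).

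XRCC1, the scaffold of single-strand break repair, moved in opposite directions with the siRNAs. It had 41.33, 40.43 and 41.06 FPKM in Scramble, 35.22, 36.29 and 33.15 after Si-FIBP#1, and 47.15, 49.71 and 49.93 after Si-FIBP#2. The Scramble samples sat between both siRNA groups without overlap. XRCC1 fell by 0.23 on the log2 scale after Si-FIBP#1 (SE 0.05, adjusted p = 0.0059) and rose by 0.25 after Si-FIBP#2 (adjusted p = 0.00328), and the difference of 0.48 between siRNAs passed (adjusted p = 0.000721). On the median-ratio scale the rise after Si-FIBP#2 was 0.13 and did not pass (adjusted p = 0.0644), while the difference between siRNAs was 0.43. Over all genes, 73 of the 5396 that passed with both siRNAs (1.35%) had opposite signs. XRCC1-201, with 86.2% to 88.6% of the gene, followed the same pattern, with log2 fold changes of -0.19 and 0.29 (adjusted p = 0.0459 and 0.01) and a difference of 0.48 (adjusted p = 0.00724). Its call with Si-FIBP#1 was lost in 9 of 11 alternatives, with the replicate block and without any sample other than Si-FIBP#2 replicate 2 (adjusted p up to 0.13). XRCC1 (chromosome 19, 43543040 to 43580473, minus strand) shares exon bases with 3 other genes.

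LIG3, the ligase that XRCC1 holds, did not pass. The samples ranged from 8.16 to 10.56 FPKM in Scramble, 7.85 to 10.5 after Si-FIBP#1 and 9.36 to 10.79 after Si-FIBP#2, with overlap throughout. The log2 fold change was -0.05 (95% interval -0.31 to 0.22, adjusted p = 0.775) and 0.06 (-0.20 to 0.33, adjusted p = 0.691). Neither value held its sign in all alternatives. The flat sum held transcripts whose means went in different directions, none of which passed against Scramble. After Si-FIBP#1 and Si-FIBP#2, LIG3-201 stood at 86.6% and 76.2% and LIG3-202 at 86.0% and 84.5% of the Scramble mean. The retained-intron transcript LIG3-207, of 565 bases, stood at 172.5% and 259.2% of a Scramble mean of 1.13 FPKM. It had 1.76, 1.62 and 0 FPKM in Scramble and 1.58, 1.46 and 2.79 after Si-FIBP#1, which overlap. After Si-FIBP#2 it had 3.3, 2.41 and 3.05. Its share of the summed FPKM went from 11.9% in Scramble to 21.3% and 29.5%. A fragment of a short transcript adds more FPKM than that of a long one, so the flat sum does not show unchanged fragments. LIG3 had an estimated 805, 773 and 680 fragments in Scramble, 764, 678 and 580 after Si-FIBP#1, and 602, 638 and 588 after Si-FIBP#2. Depth in the same order was 21800000, 22400000 and 20800000, then 23800000, 23000000 and 20000000, then 21000000, 21700000 and 20200000. Fragments scaled by depth alone were not tested. LIG3 (chromosome 17, 34980494 to 35009743, plus strand) shares exon bases with CCT6B and RFFL on the other strand.

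PARP1, the main sensor of DNA nicks, fell with both siRNAs and further with the second. It had 53.55, 54.97 and 54.25 FPKM in Scramble, 41.57, 41.02 and 42.68 after Si-FIBP#1, and 33.77, 36.27 and 34.62 after Si-FIBP#2. The 3 groups were tight and stood apart, at 77.0% and 64.3% of the control mean. PARP1 fell by 0.37 (SE 0.05, adjusted p = 0.000214) and by 0.62 on the log2 scale (adjusted p = 9.85e-06), and the siRNAs differed by -0.25 (adjusted p = 0.00839). An estimated 2583 to 4565 fragments a sample came from PARP1, the most of the 10 genes. Its transcript PARP1-203 made up 99.7% to 99.9% of the gene and differed between siRNAs by -0.25 (adjusted p = 0.0419), a call lost in 9 of 11 alternatives, with the replicate block and without any sample other than Si-FIBP#2 replicate 2 (adjusted p up to 0.14). PARP1 (chromosome 1, 226360691 to 226408079, minus strand) shares no exon bases with another gene.

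PARP2, the partner enzyme of PARP1, fell further after Si-FIBP#1 than after Si-FIBP#2. It had 19.88, 22.18 and 20.94 FPKM in Scramble, 12.8, 14.57 and 15.12 after Si-FIBP#1, and 18.22, 18.51 and 17.5 after Si-FIBP#2. All siRNA samples were below all controls. PARP2 fell by 0.54 on the log2 scale after Si-FIBP#1 (SE 0.07, adjusted p = 0.000303) and by 0.20 after Si-FIBP#2 (adjusted p = 0.045), a difference of 0.33 (adjusted p = 0.0165). The call after Si-FIBP#2 was lost in 9 of 17 alternatives, 6 of which left out a sample, with adjusted p up to 0.151. These were the leaving out of Scramble replicate 2 or 3, Si-FIBP#1 replicate 2, or any Si-FIBP#2 sample, and TPM scaling (adjusted p = 0.0518), no filter on low values (0.0725) and annotated transcripts alone (0.0549). The difference between siRNAs was lost without Si-FIBP#1 replicate 1 (0.27, adjusted p = 0.0519) or Si-FIBP#2 replicate 1 (0.33, 0.0503). PARP2-202, its main transcript, fell with both siRNAs (-0.59 and -0.36, adjusted p = 0.00392 and 0.034), and PARP2-201 fell after Si-FIBP#1 (-0.81, adjusted p = 0.0239). The call of PARP2-202 with Si-FIBP#2 was lost without Scramble replicate 2 or 3, Si-FIBP#1 replicate 2, or any Si-FIBP#2 sample (adjusted p up to 0.11), and that of PARP2-201 without Scramble replicate 2 or 3 (adjusted p up to 0.0728). PARP2 (chromosome 14, 20343582 to 20357905, plus strand) shares exon bases with 2 antisense genes.

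Between the siRNAs, 3 of the 10 genes (UNG, APEX1 and PARP1) were lower and 2 (XRCC1 and PARP2) higher after Si-FIBP#2 than after Si-FIBP#1. Of all genes 5.8% were lower and 9.58% higher in that comparison; scaled to TPM, where the passing genes went from 1435 higher and 869 lower to 1903 and 643, the 10 genes again gave 2 higher and 3 lower, and so they did on the median-ratio scale, where 1076 genes were higher and 1195 lower. Among 35 tested transcripts of the 10 genes, 3 rose and 6 fell after Si-FIBP#1 (10.7% and 10% of all transcripts), and 3 rose and 4 fell after Si-FIBP#2 (10.6% and 8.46%). No tested transcript of OGG1, MUTYH or LIG3 passed against Scramble.

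The order of levels also changed. In Scramble it ran from APEX1 over UNG, PARP1, XRCC1, PARP2, POLB, MUTYH, LIG3 and NEIL3 to OGG1, and LIG3, NEIL3 and OGG1 overlapped with their neighbours. With Si-FIBP#1, PARP1 passed UNG, POLB passed PARP2, and NEIL3 came last; UNG overlapped XRCC1, and PARP2 overlapped MUTYH. With Si-FIBP#2 the order was APEX1, XRCC1, PARP1, UNG, POLB, PARP2, MUTYH, LIG3, OGG1 and NEIL3, and no neighbours overlapped.

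The rest of the pathway was read from 4 lists of 40 genes in all, every one of which was tested. Of these, 9 rose, 21 fell and 10 did not pass after Si-FIBP#1 (median log2 fold change -0.27), and 7 rose, 18 fell and 15 did not pass after Si-FIBP#2 (-0.26). Over all genes 27.8% were higher and 19.9% lower with the first siRNA (median 0.07), and 31.1% and 17.7% with the second (0.11). The long-patch and ligation list held most of the falls. Of its 16 genes 14 fell and 1 rose with each siRNA, 7 and 5 of them falling by over 2-fold, with medians of -0.84 and -0.76. PCNA, the sliding clamp, went from 183.9 ± 4.43 FPKM (SD, n = 3) to 67.5 ± 5.79 and 80.6 ± 1.77. LIG1, the ligase of the long route, went from 25.1 ± 3.29 to 8.62 ± 1.75 and 10.7 ± 0.97, and RFC4, a subunit of the clamp loader, from 63.5 ± 3.58 to 25.0 ± 1.58 and 22.0 ± 2.55. POLD1, the catalytic subunit of polymerase delta, went from 27.1 ± 3.02 to 10.0 ± 1.55 and 12.8 ± 0.38; all 4 passed with both siRNAs. The exceptions, named after their values were seen, were POLD4, which rose by 0.34 and 0.32 on the log2 scale, and POLE4, which did not pass.

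The other 3 lists were mixed. Among all genes the shares were 27.8% higher and 19.9% lower with the first siRNA, and 31.1% and 17.7% with the second; counts in lists of 7 to 10 genes lie close to these, so they are no result about the lists. Of 7 other glycosylases 3 rose and 2 fell after Si-FIBP#1, and 2 rose and 1 fell after Si-FIBP#2. NEIL1, a relative of NEIL3, rose from 1.53, 1.33 and 2.07 FPKM in Scramble to 5.37, 4.15 and 3.2 after Si-FIBP#1 and 4.37, 4.55 and 4.56 after Si-FIBP#2, opposite to NEIL3 (log2 fold change 0.98 and 1.06, SE 0.16, adjusted p = 0.000797 and 0.000471). MPG, which removes alkylated bases, rose after Si-FIBP#1 (0.61, adjusted p = 0.000295) and fell after Si-FIBP#2 (-0.32, adjusted p = 0.0113). TDG, the thymine-DNA glycosylase, named after its values were seen, was 17.3 ± 0.27 FPKM (SD, n = 3) in Scramble, 16.4 ± 2.58 after Si-FIBP#1 and 31.6 ± 2.46 after Si-FIBP#2, and rose with the second alone (0.83, adjusted p = 0.000144; difference between siRNAs 0.91, adjusted p = 0.000741). In the list of 7 end-processing genes 3 rose and 2 fell after Si-FIBP#1, and 1 rose and 2 fell after Si-FIBP#2, APTX rising (0.34 and 0.33, adjusted p = 0.0035 and 0.00414) and TDP1 falling (-0.33 and -0.37, adjusted p = 0.0146 and 0.00736) with both. Among 10 genes of ADP-ribose signalling 2 rose and 3 fell after Si-FIBP#1, and 3 rose and 1 fell after Si-FIBP#2. PARP3 (0.63 and 0.86) and TNKS2 (0.43 and 0.36) rose with both siRNAs, opposite to PARP1, and MACROD1, which removes ADP-ribose, fell with both (-1.01 and -0.46). PARG, which degrades poly(ADP-ribose), fell after Si-FIBP#1 (-0.37, adjusted p = 0.00112) and rose after Si-FIBP#2 (0.20, adjusted p = 0.0251), as XRCC1 did.

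**Figure D4:**
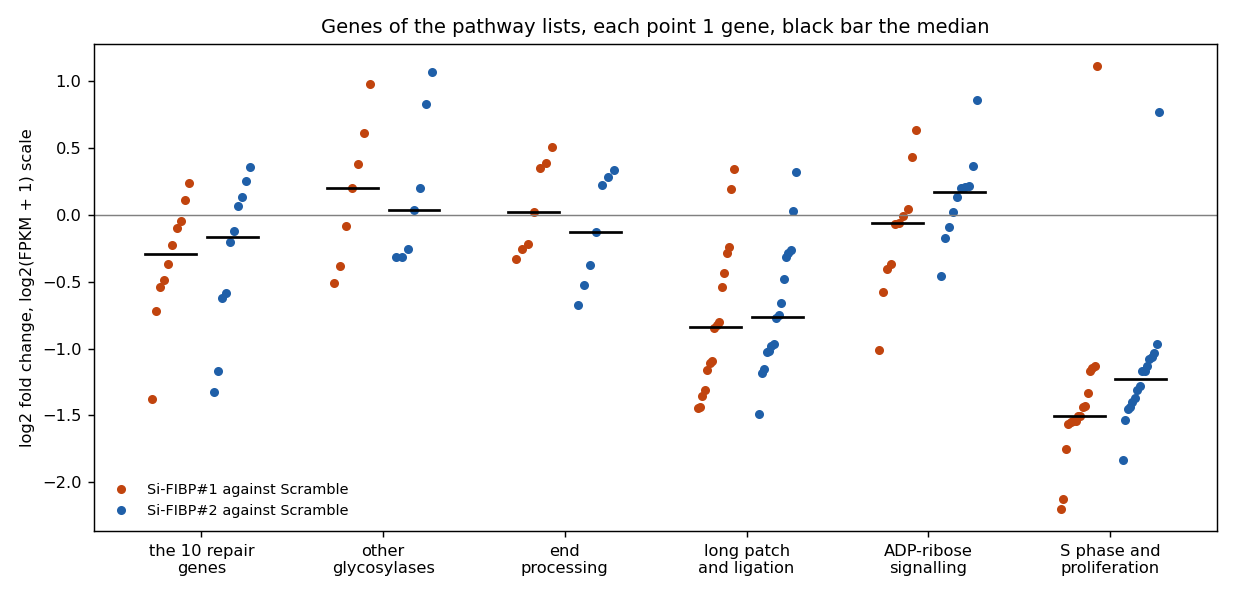
Log2 fold change of every gene in the 10 repair genes, the 4 pathway lists and the S phase and proliferation list after Si-FIBP#1 (orange) and Si-FIBP#2 (blue) against Scramble. Each point is 1 gene and each black bar the median of the list. The long-patch list and the S phase and proliferation list lie mostly below 0, whereas the other lists spread on both sides of it.

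Genes of S phase and proliferation moved beside NEIL3, UNG and the long-patch list. The long-patch list itself holds the replication proteins PCNA, FEN1 and LIG1, so both lists contain genes of DNA replication. Of 16 such genes 15 fell and 1 rose with each siRNA, with median log2 fold changes of -1.50 and -1.22, where 19.9% and 17.7% of all genes fell. RRM2, a subunit of ribonucleotide reductase, went from 132.4 ± 2.84 FPKM (SD, n = 3) to 29.7 ± 2.34 and 36.9 ± 7.13, and TYMS, thymidylate synthase, from 213.5 ± 5.28 to 45.7 ± 2.14 and 73.4 ± 8.83. The helicase subunits MCM7 (-1.75 and -1.28) and MCM5 (-1.54 and -1.45) fell as well. CCNE1, named after its values were seen, was the gene that rose (1.11 and 0.77). The part of cell cycle distribution in the changes of the repair genes was not tested.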

How the data were processed

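Poly(A)-selected RNA of H1299 cells was sequenced in paired ends, and HISAT2 and StringTie are named in the submitters' processing notes, without versions; genome build, annotation and use of strand are not given in the sources used here. The authors deposited 1 table of 244443 transcripts per sample, of which 14956 were assembled by them. The deposited values were read as FPKM, since the unit is not written in the tables and was inferred from their steps and sums. The tables used here hold no counts, so no count test was run. The depth was estimated from single-transcript genes and limits low genes most.

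From these tables FPKM was summed per gene, 14985 genes were kept that reached 1 FPKM in 3 or more samples, and log2(FPKM + 1) was fitted in limma 3.58.1 with a mean-variance trend (R 4.3.3, Python 3.11.15), all groups in 1 fit. Fold changes on this scale understate those of low genes. Genes passed at FDR below 0.05, Benjamini-Hochberg adjusted over all genes, and a fold change over 2 was counted beside it. Transcripts were fitted in the same way. On simulated data for Si-FIBP#1, with normal noise and 200 genes changed, 94% of log2 changes of 1.5 (14159 genes) were recovered. Of changes of 0.5 (14152 genes) 42.5% were recovered. Far more genes passed in the data, which loosens the adjusted threshold, so these shares are not the power of the test here.

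The 10 genes, the lists and the alternatives were chosen with earlier results of these data known. Named genes were all 10 members, in each list at most 4 genes that passed with both siRNAs by mean absolute change, any list gene that passed with opposite signs, and the 3 genes most like NEIL3. Transcripts with at least 10% of their gene were to be named as well. Several such transcripts of OGG1, MUTYH, APEX1, POLB and PARP2 did not pass and are not shown, so the account of transcripts is not complete. Genes and transcripts named outside these rules are marked in the text. Positions are from GENCODE release 29 (GRCh38) and promoters from RefSeq (GRCh38.p14), since the build of the tables is not stated. Alternatives were TPM and median-ratio scaling, a pseudocount of 0.1, a filter of 5 FPKM or none, annotated transcripts alone, pairs of groups, the replicate block and leaving out each sample. A marker of the cell line is not reported here.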

Additional observations from a re-analysis of the deposited data

Results flagged for a closer look

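Some effects differed between the 2 siRNAs by a test of the difference itself (limma, adjusted over all genes; Si-FIBP#2 minus Si-FIBP#1, log2 scale, n = 3 each). Among the 10 repair genes these were UNG at -0.4499 (adjusted p = 0.00597), APEX1 at -0.2325 (0.0111), XRCC1 at 0.477 (0.000721), PARP1 at -0.2531 (0.00839) and PARP2 at 0.334 (0.0165). Of the pathway genes named in the text, MPG differed by -0.9289 (0.00032), TDG by 0.9103 (0.000741), PARG by 0.5707 (0.000746), MACROD1 by 0.5517 (0.0225) and PCNA by 0.2548 (0.0233). Of the S phase genes named, TYMS differed by 0.6658 (0.0011) and MCM7 by 0.4662 (0.00032). Adjusted over all transcripts, XRCC1-201 differed by 0.4837 (0.00724), APEX1-201 by -0.2607 (0.0284) and PARP1-203 by -0.2546 (0.0419); in the 11 alternatives for transcripts the first kept its call, and the others lost it in 8 and 9. The 3 samples of a group are too few for a test of single outlying values.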

How the results depend on the processing

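UNG, OGG1, NEIL3 and PARP1 kept their direction and their side of the threshold with each siRNA in all 17 alternatives run for them. Asking for a fold change over 2 in addition left 1, 2 and 0 of the 10 genes (7, 7 and 5 without it) in Si-FIBP#1, Si-FIBP#2 and between the siRNAs, and 8, 6 and 0 of the 40 pathway genes (30, 25 and 7 without it). Between the siRNAs, 4 pathway genes passed with no filter and 4 to 8 when a sample was left out; member transcripts passing between the siRNAs went from 3 to 1 with the replicate block and to between 1 and 3 when a sample was left out. For genes that did not pass, signs turned in OGG1 between siRNAs (0.0142 without Si-FIBP#1 replicate 1, range -0.1739 to 0.0142 over the left-out samples), NEIL3 between siRNAs (-0.0196 without Si-FIBP#2 replicate 3, range -0.0196 to 0.1258), LIG3 with Si-FIBP#1 (0.0299 without Scramble replicate 1, 0.0478 without Si-FIBP#1 replicate 2, range -0.1412 to 0.0478) and LIG3 with Si-FIBP#2 (-0.0485 on the median-ratio scale, -0.0292 without Scramble replicate 3, range -0.0292 to 0.1387). The cause was not tested. After removing group means, same-numbered samples of different groups correlated at -0.06 to 0.10, and samples with other numbers at -0.14 to 0.05. Of the 9 samples, 8 correlated best with their own number. Whether the numbers mark pairs is not settled by this, and the main fit left them out. Over all 47662 transcripts the block took those passing between the siRNAs from 669 higher and 503 lower to 327 and 278. Besides these and the member transcripts given above, the block moved no count of passing genes or transcripts by over 1.5 times. Of 576 values under alternatives, for the 10 genes, UNG-201 and UNG-202, 545 kept direction and side of the threshold, 21 lost their call, 4 gained one and 6 changed sign. This tally leaves out all other transcripts, whose lost calls are given with their genes. Depth limits NEIL3 and OGG1 most, with an estimated 103 to 427 and 160 to 287 fragments a sample.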
